A study of Mus musculus with 8 samples.

Results

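Dppa2, Dppa4, Morc1 and 6430553K19Rik lie close together on mouse chromosome 16, with 1 other measured gene, Gm5485, among them. All probe sets annotated to these 4 genes were taken, which gave 5 of the 45101 probe sets on the array: 2 for Dppa2 and 1 for each of the others, each annotated to a single gene. The members were selected on their signal in these same arrays, by its difference between the siRNA groups, so all values of the members in the comparisons below are a description and carry no test.

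The arrays measured RNA of mouse pre-iPSCs, cells caught partway between a somatic cell and an induced pluripotent stem cell, after 3 days with siRNA in embryonic stem cell medium. In the 3XHMT group (n = 2) the siRNAs were directed at Ehmt1, Ehmt2 and Setdb1 together, which encode enzymes that methylate lysine 9 of histone H3. In the Cbx3 group (n = 3) the target was Cbx3, which encodes HP1 gamma, a protein that binds this methylation. Control cells (n = 3) received siRNA to luciferase. Replicates are labelled as biological, but what was repeated (a culture, a transfection) is not stated, so p-values measure the spread between these arrays, which may be partly technical. The labels name neither the line nor the reprogramming factors.

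Dppa2 and Dppa4 encode nuclear proteins with a SAP domain, a fold that contacts DNA. In mouse the proteins work as a pair, are made in pluripotent cells and early germ cells, and in embryonic stem cells are needed for the activation of Dux and of genes of the 2-cell embryo. Morc1 encodes an ATPase of the MORC family, known in mouse for silencing transposons in the male germ line. 6430553K19Rik is a long non-coding RNA gene in RefSeq.

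The targeted transcripts and the labelled cell type were looked at first. The brightest Cbx3 probe set, shared with the pseudogene Cbx3-ps5, stood at 42.8% of control in the Cbx3 group. Other probe sets shared with Cbx3-ps5 stood at 37.9%, 43.9% and 79.0%. A dim one annotated to Cbx3 alone stood at 82.9%. In the 3XHMT group the brightest probe sets of Setdb1, Ehmt2 and Ehmt1 stood at 63.2%, 66.8% and 79.6% of control. The probe sets shared with Cbx3-ps5 carry several symbols, were left out of the limma fit to all genes and were not tested. In that fit Cbx3 was represented by the dim probe set at 82.9%. Neither it nor the brightest probe sets of Setdb1, Ehmt2 and Ehmt1 passed an adjusted p of 0.05 (lowest 0.339, Setdb1). Dimmer probe sets stood at 60.9% and 95.3% for Setdb1 and at 75.5% for Ehmt2. In control cells Pou5f1, which encodes Oct4, averaged 12.99 ± 0.34 and Nanog 5.13 ± 0.27 (SD, n = 3 each, log2 signal), and Nanog lay below the median of every control array, the lowest of which was 5.87. Arrays also differed in the signal of an 18S ribosomal RNA control probe set, which divided them into 3 tiers: low (3XHMT 2, Cbx3 3 and control 3, 9.98 to 10.17), middle (Cbx3 1 and control 1, 11.50 and 11.22) and high (3XHMT 1, Cbx3 2 and control 2, 12.57 to 12.82). Differences within tiers, and fits with the tier as a block, are given where they bear on a result. In a bulk sample, more cells with a transcript and more transcript per cell cannot be told apart.

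Signal at the Dppa2, Dppa4 and Morc1 probe sets was highest in 3XHMT cells and lowest on average in Cbx3 cells. All values are the authors' RMA signals on a log2 scale, so that a difference of 1 is a doubling, and levels of different probe sets cannot be set against each other.

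Dppa4 was the member whose arrays did not overlap between any of the 3 groups. Its probe set read 8.61 and 7.55 on the 3XHMT arrays, 5.28, 5.08 and 5.25 on the Cbx3 arrays, and 5.55, 5.54 and 5.48 on the control arrays. The 3XHMT arrays lay at least 2.00 above every control array, and the Cbx3 arrays all lay below the control arrays, the nearest pair being 0.20 apart. The group means were 8.08 ± 0.75 in 3XHMT cells (SD, n = 2), 5.20 ± 0.11 in Cbx3 cells and 5.52 ± 0.04 in control cells (SD, n = 3 each). The 3XHMT level was thus 5.89-fold that of control, a log2 difference of 2.56 ± 0.26 (SE of the limma fit to all genes). It was 2.03 without array 3XHMT 1 and 3.09 without array 3XHMT 2. For Cbx3 against control the log2 difference was -0.32 ± 0.24 (SE), a level 1.25-fold lower.

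Dppa2, whose product is the partner of the Dppa4 protein, followed the same order. Its brighter probe set read 9.20 and 8.42 on the 3XHMT arrays, 4.71, 5.59 and 5.53 on the Cbx3 arrays, and 5.37, 6.32 and 6.71 on the control arrays. The dimmer probe set, which rests on the same transcript accession, read 8.89 and 8.47 on the 3XHMT arrays, 4.69, 5.39 and 5.51 on the Cbx3 arrays, and 5.19, 5.70 and 6.27 on the control arrays. In both, the 3XHMT arrays stood clear of all others, while the Cbx3 and control arrays overlapped. The probe sets gave like sizes: 3XHMT over control was 6.42-fold by the brighter and 7.79-fold by the dimmer one, and the Cbx3 level was 1.81-fold and 1.44-fold below control. The brighter one differed by 2.68 ± 0.43 (SE) for 3XHMT and by -0.85 ± 0.38 (SE) for Cbx3.

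Unlike Dppa4, Dppa2 was uneven among the control arrays, with an SD of 0.69 against 0.04. Array control 1 was the lowest of its group in both Dppa2 probe sets, and so was array Cbx3 1, the other array of the middle 18S tier.

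Morc1 was already bright in control cells. Its probe set read 12.22 and 12.34 on the 3XHMT arrays, 9.00, 9.80 and 9.19 on the Cbx3 arrays, and 9.14, 11.01 and 10.67 on the control arrays. The 3XHMT arrays were close to each other and 1.21 or more above the brightest control array, while array control 1 fell among the Cbx3 arrays. The 3XHMT level of Morc1 was 4.03-fold that of control (log2 difference 2.01 ± 0.49, SE) and 1.92-fold lower in Cbx3 than in control cells (-0.94 ± 0.44, SE). Without array control 1 these log2 differences were 1.44 and -1.51, that is, a smaller gap for 3XHMT and a larger one for Cbx3. The low Dppa2 and Morc1 signal of array control 1 had no counterpart in Dppa4, which read 5.55 there.

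The 6430553K19Rik probe set was dim. It read 4.15 and 4.23 on the 3XHMT arrays, 3.07, 3.09 and 3.30 on the Cbx3 arrays, and 3.38, 3.26 and 3.31 on the control arrays. These values were below the lower quartile of the signal on all 8 arrays (4.38 to 4.47), yet the 3XHMT arrays lay 0.77 above the highest control array. The log2 difference was 0.87 ± 0.12 (SE) for 3XHMT against control, or 1.83-fold, and -0.16 ± 0.11 (SE) for Cbx3 against control, with overlapping arrays.

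**Figure D1:**
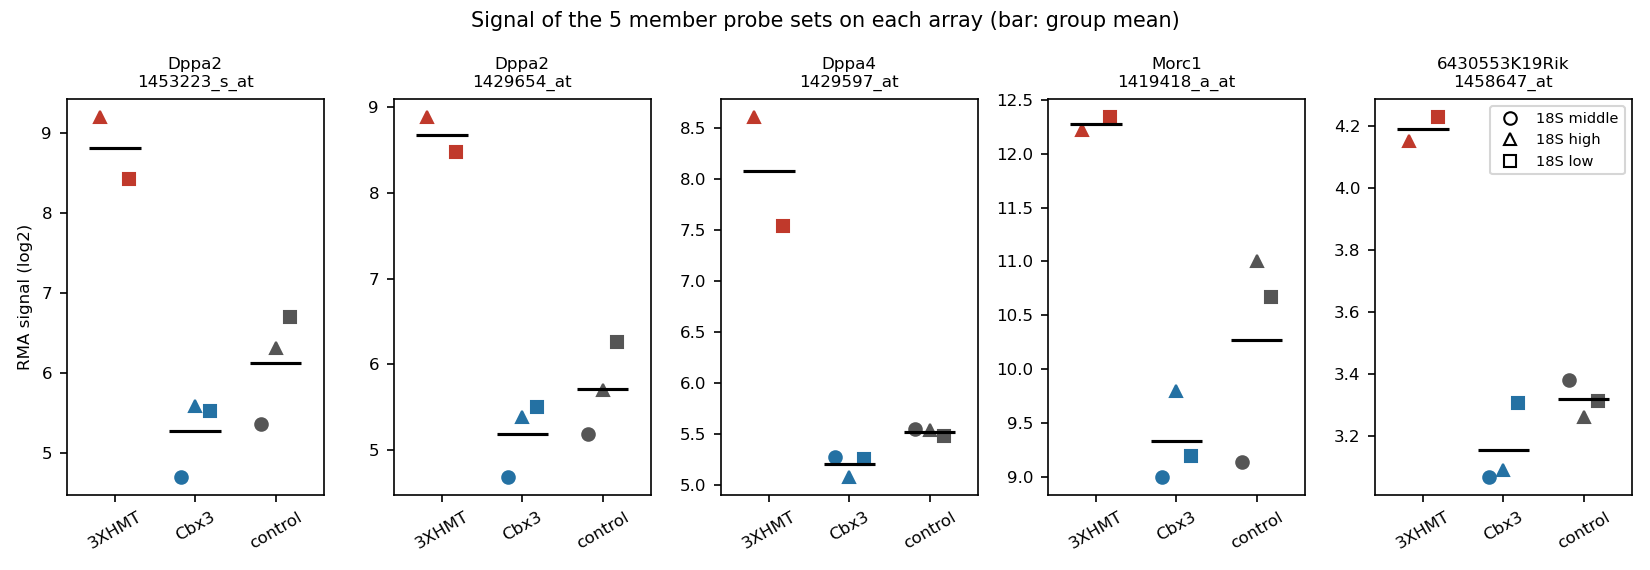
RMA signal (log2) of each member probe set on each array, 3XHMT (n = 2), Cbx3 (n = 3) and control (n = 3) from left to right, with the group mean as a bar and the 18S tier as the symbol. Each panel has its own axis, and in all 5 panels both 3XHMT arrays lie above the 6 other arrays.

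The start of 6430553K19Rik is shown because it is the member with a promoter entry in the RefSeq table used here (1 of 4 matched). The stretch runs from 250 bases before to 50 bases after the annotated start, chr16:48158450-48158749 on the minus strand of GRCm38.p6, and is written 5′ to 3′ with matches to AP-1 and E-box letters in capitals.
6430553K19Rik: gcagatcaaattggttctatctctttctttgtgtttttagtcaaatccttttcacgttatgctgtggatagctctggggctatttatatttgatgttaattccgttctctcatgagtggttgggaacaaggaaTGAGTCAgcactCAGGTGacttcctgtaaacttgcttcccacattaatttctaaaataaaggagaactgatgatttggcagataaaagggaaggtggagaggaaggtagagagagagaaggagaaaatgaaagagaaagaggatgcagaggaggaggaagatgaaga
The stretch is 40.0% G and C and holds 2 CpG dinucleotides, where the median of 32851 promoters of this length is 7 and 23.3% hold as few or fewer. The 3 short motifs named next were searched on both strands after the sequence had been read. The AP-1 letters TGAGTCA occur once, as in 5.20% of all promoters at least once, the E-box letters CAGGTG once (20.2%), and the octamer ATGCAAAT 0 times (1.74%). The capitals mark letters, not measured binding.

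Set against all genes, both 3XHMT arrays exceeded all Cbx3 and control arrays at 4 of 4 member genes and at 4.68% of the 18193 genes measured, a share beside which nothing can be read for genes proposed for that difference. Taken singly, the 3XHMT arrays were clear above control at 9.28% and clear above Cbx3 at 13.2% of all genes. Members were 11.6-fold (Dppa2), 7.34-fold (Dppa4), 7.74-fold (Morc1) and 2.05-fold (6430553K19Rik) higher in 3XHMT than in Cbx3 cells. The means of 4 of 4 members ran from high to low as 3XHMT, control and Cbx3, an order found at 20.4% of genes. In Cbx3 cells the members were 1.12-fold (6430553K19Rik) to 1.92-fold (Morc1) lower than in control cells. Only Dppa4, at 1.25-fold, had Cbx3 and control arrays that did not overlap, which happened in the lower direction at 6.78% of genes. The 3XHMT and Cbx3 comparisons with control share the control arrays, so a control array that is high or low moves both.

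Within 18S tiers the directions were the same. For 3XHMT they had to be, since both 3XHMT arrays lie above all others at the 5 probe sets. The same holds for Cbx3 at Dppa4, whose arrays all lie below control. There the tiers give sizes and no check of direction. In the high tier, 3XHMT 1 minus control 2 was 2.88 for Dppa2 (brighter probe set), 3.08 for Dppa4, 1.21 for Morc1 and 0.89 for 6430553K19Rik. In the low tier, 3XHMT 2 minus control 3 was 1.72, 2.07, 1.68 and 0.92 in the same order of genes. Dppa2 and Dppa4 thus differed more in the high tier and Morc1 in the low tier. Cbx3 minus control was negative in all 3 tiers for the 5 probe sets. It ran from -1.17 to -0.66 for Dppa2 (brighter probe set), from -0.46 to -0.23 for Dppa4, from -1.48 to -0.14 for Morc1 and from -0.31 to -0.01 for 6430553K19Rik, so that array pairs differed most at Morc1.

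**Figure D2:**
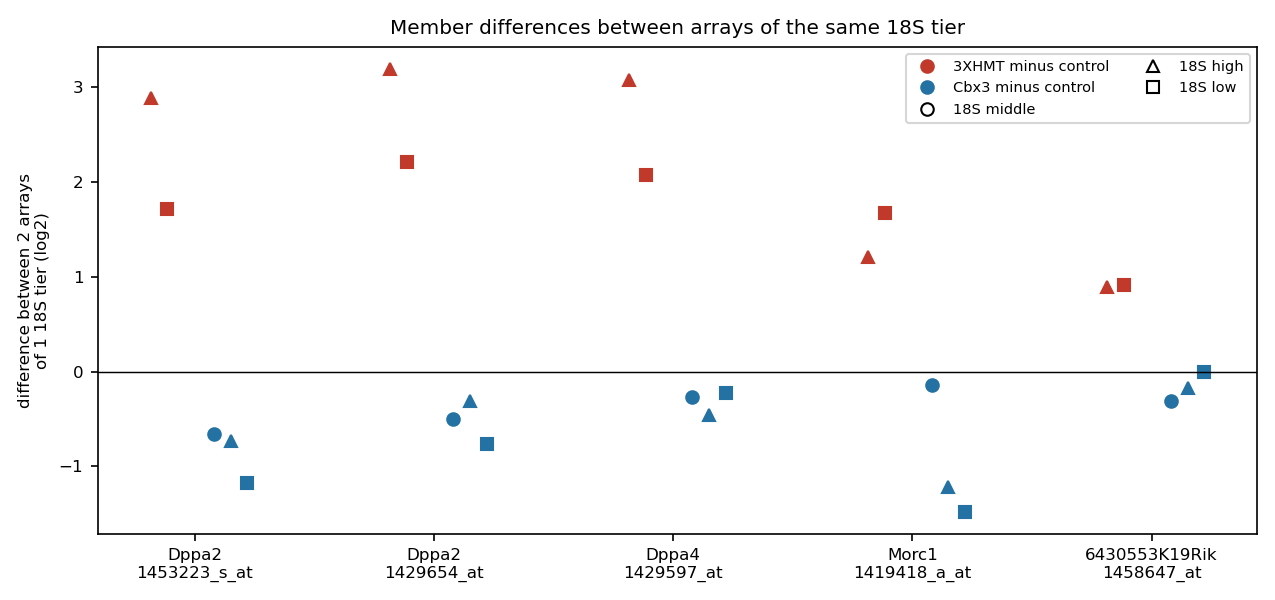
Difference in RMA signal (log2) between 2 arrays of the same 18S tier, for each member probe set, with 3XHMT minus control on the left of each gene and Cbx3 minus control on the right. The 3XHMT differences are all above 0 (0.89 to 3.19), which the lack of overlap with control requires, and the Cbx3 differences all below 0 (-1.48 to -0.01). The middle tier holds no 3XHMT array.

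Genes around the cluster were not used to choose the members and were tested. In RefSeq order, Gm5485, a long non-coding RNA gene, lies between Dppa2 and Morc1. It showed no resolved difference, at 0.05 ± 0.15 (SE) for 3XHMT against control (limma adjusted p = 1.00, Benjamini-Hochberg over all genes), and its signal of 3.43 to 3.90 lay, like that of 6430553K19Rik, below the lower quartile on every array. On each side the 10 nearest measured genes were taken. In the limma fit 0 of these 20 neighbours passed an adjusted p of 0.05 for 3XHMT against control, where 0.231% of all genes did, and 4 of 20 had an unadjusted p under 0.05, as did 5.27% of all genes. For Cbx3 against control 0 of 20 passed (0.445% of all genes), also with 4 of 20 at an unadjusted p under 0.05 (9.56% of all genes). Their median log2 difference was -0.03 for 3XHMT and -0.08 for Cbx3, beside 0.01 for both comparisons over all genes.

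Between 3XHMT and Cbx3 cells, 1 neighbour was higher and 1 lower, where 1.51% of all genes passed. Cd96, a receptor gene of T and natural killer cells and the second measured gene beyond 6430553K19Rik, read 6.33 and 6.82 on the 3XHMT arrays, 5.28, 5.47 and 5.38 on the Cbx3 arrays, and 5.24, 5.55 and 5.53 on the control arrays. The 3XHMT arrays stood above all others, as at the members, while Cbx3 and control arrays overlapped. Among the neighbours, both 3XHMT arrays also stood above all others at Btla, Plcxd2 and Abhd10, as at 4.68% of all genes. Of these, Plcxd2 averaged 8.35 in 3XHMT, 7.71 in control and 7.27 in Cbx3 cells. Its 2.12-fold difference between 3XHMT and Cbx3 cells did not pass (limma adjusted p = 0.0596, or 0.00141 with the 18S tier as a block). Cd96 was 2.29-fold higher in 3XHMT than in Cbx3 cells (limma adjusted p = 0.0192) and 2.20-fold higher than in control cells without passing (adjusted p = 0.0594; 0.0117 with the 18S tier as a block). Phldb2, which encodes a protein of the cell cortex, was 3.63-fold lower in 3XHMT than in Cbx3 cells (adjusted p = 0.0244), with means of 5.41 ± 0.06 (SD, n = 2) and 7.27 ± 0.50 (SD, n = 3) beside 6.01 ± 0.33 in control cells (n = 3). Its order of groups was thus the reverse of that of the members. Both calls were lost when 1 array of the compared groups was left out: Cd96 without any of the 5 (adjusted p up to 0.118), and Phldb2 without 3XHMT replicate 1 or 2 or Cbx3 replicate 1 or 3 (up to 0.140).

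Against control, some neighbours passed with the 18S tier as a block and not without it. For 3XHMT these were Cd96 and Btla, 2 of 20 where 1.76% of all genes passed in that fit. Btla, a lymphocyte receptor gene 10 measured genes away, read 7.67 and 7.61 on the 3XHMT arrays, 5.24, 6.47 and 5.36 on the Cbx3 arrays, and 5.29, 6.45 and 5.57 on the control arrays. Its 3XHMT level was 3.65-fold that of control (adjusted p = 0.245; 0.00778 with the block), and the higher Cbx3 and control arrays were those of the high tier. In Cbx3 against control 4 of 20 neighbours passed with the tier block, where 6.59% of all genes did, and of these Phldb2 alone also passed with the replicate number as a block (adjusted p = 0.0335). Phldb2 was 2.40-fold higher (adjusted p = 0.101; tier block 0.00787). Lower were Nectin3, an adhesion gene (1.73-fold; 0.300, tier block 0.00692), and Plcxd2 (1.36-fold; 0.529, tier block 0.0324), all on the side of 6430553K19Rik. On the Morc1 side, Cd47, the tenth gene, which encodes a signal to phagocytes, was 1.28-fold lower in Cbx3 cells (0.238; tier block 0.0477) and 1.31-fold lower in 3XHMT cells (0.518; tier block 0.216). The 9 genes nearer to Morc1, from Trat1 to Gm16619, had log2 differences between -0.30 and 0.21 in both comparisons with control, and 0 of these 9 passed with or without the tier block.

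**Figure D3:**
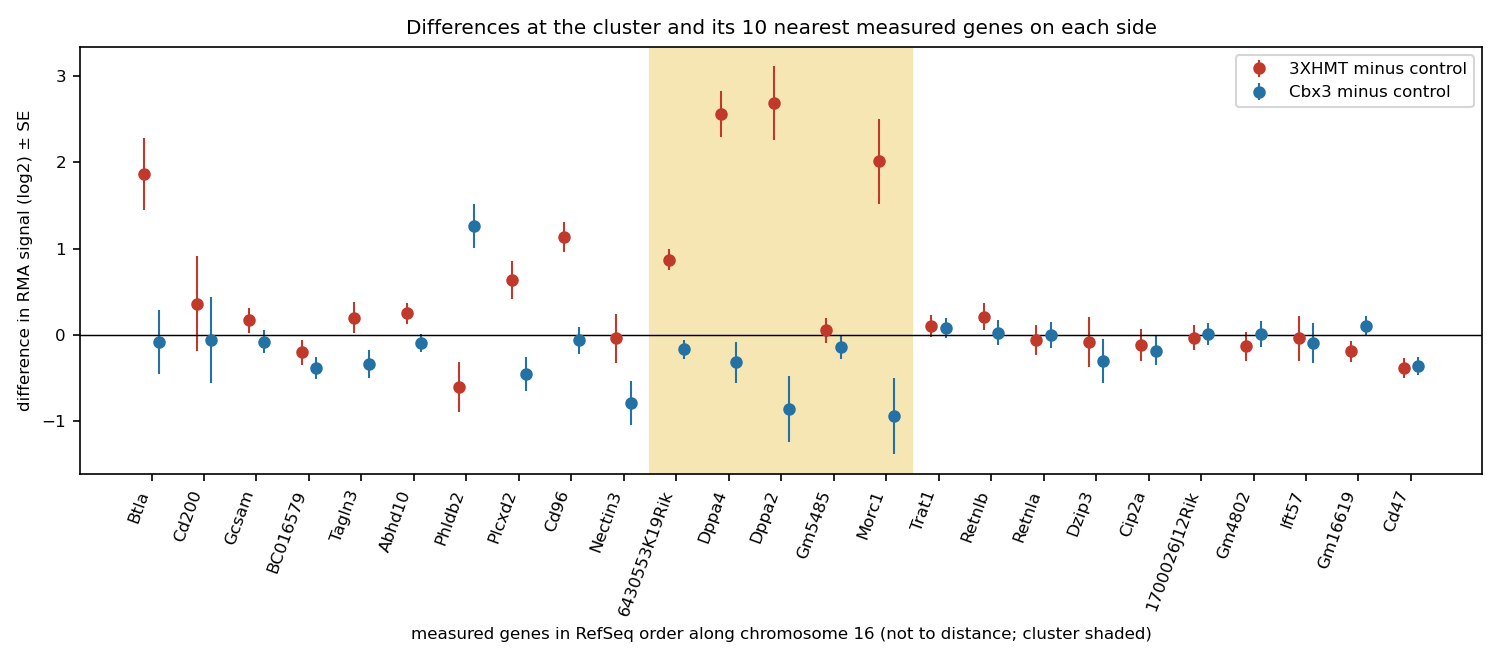
Log2 difference ± SE of the limma fit for the 4 members and Gm5485 (shaded) and the 10 nearest measured genes on each side, in RefSeq order and not to distance, with 3XHMT minus control in red and Cbx3 minus control in blue. Dppa4, Dppa2 and Morc1 stand at 2.01 to 2.68 for 3XHMT, Gm5485 between them at 0.05, and Btla and Cd96 at 1.87 and 1.13.

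Along the genome, 18098 runs of 3 consecutive measured genes were formed from the 18142 genes with a RefSeq position. In 7 of them all 3 genes had both 3XHMT arrays above the 6 others, among them 6430553K19Rik, Dppa4 and Dppa2, and Pcdhb20, Pcdhb21 and Pcdhb22, which encode protocadherins. By mean 3XHMT minus control difference, 6430553K19Rik, Dppa4 and Dppa2 came second with 2.04, after Akr1c18, Akr1c13 and Akr1c19 with 2.32, which encode aldo-keto reductases. These runs were drawn up with the members known and serve as a description.

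The profiles most like those of the members were found by the root mean square of the log2 difference between genes over the 8 arrays, after centring each gene on its own mean. This measure is led by the arrays with the largest spread, here the 3XHMT arrays. For Dppa2 the nearest were Zfp42, which encodes the pluripotency marker Rex1 (0.42), Morc1 (0.46), Akr1c13 (0.47), Slc9b1, a sodium/hydrogen exchanger gene (0.53), and Dppa4 (0.55), where the centred Dppa2 profile itself had a root mean square of 1.47. For Morc1 they were Neurod1, a neurogenic transcription factor gene (0.40), Dppa2 (0.46), Slc9b1 (0.47), Lama3, a laminin gene (0.53), and Akr1c13 (0.56), beside 1.27 for Morc1. For Dppa4 they were AI662270 (0.29), Pcdhb20 (0.32), Akr1c13 (0.36), the protocadherin gene Pcdh17 (0.36) and Mgat4c, a glycosyltransferase gene (0.37), beside 1.22 for Dppa4, with Dppa2 in place 15 and Morc1 in place 29. Dppa2 was therefore nearer to Morc1 than to Dppa4 over these arrays, and 6430553K19Rik, whose differences are small, was no nearer than place 72 to any of them.

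Other pluripotency genes were compared as a list without the members. For 3XHMT against control 31 of 38 measured genes (81.6%) were higher, where 51.7% of all genes were. Their median log2 difference was 0.15 beside 0.01 over all genes. Of the 38, 2 rose and 0 fell at an adjusted p under 0.05, where 0.231% of all genes passed in either direction. The 2 were Zfp42 (8.54-fold, limma adjusted p = 0.0452) and Nanog (7.01-fold, adjusted p = 0.0434). Both calls were lost without 3XHMT replicate 1 or 2, any control replicate or Cbx3 replicate 3, and that of Zfp42 also without Cbx3 replicate 1 or 2 (adjusted p up to 0.323 for each). With the tier as a block, where 1.76% of all genes passed, 5 of 38 rose, which added Nr0b1, Gbx2 and Dppa5a. For Cbx3 against control Nanog was the 1 gene that rose and 0 fell (0.445% of all genes passed), or 5 fell with the 18S tier as a block (6.59%). Nanog was 9.94-fold higher (limma adjusted p = 0.0151, lost without control replicate 1 or 2 at up to 0.0656). Zfp42 differed by -0.25 between Cbx3 and control (adjusted p = 0.971), while the members' own differences ran from -0.94 to -0.16.

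Between the knockdowns, where 1.51% of all genes passed, 4 of 38 pluripotency genes were higher in 3XHMT cells and 0 lower. They were Zfp42 (10.1-fold, limma adjusted p = 0.0151), the nuclear receptor gene Nr0b1 (12.1-fold, 0.0244), Eras, a Ras-like gene of embryonic stem cells (2.81-fold, 0.0268), and the Polycomb gene Phc1 (1.64-fold, 0.0340). Each call was lost without 3XHMT replicate 1 or 2, that of Nr0b1 also without Cbx3 replicate 2, that of Eras without any Cbx3 replicate, and that of Phc1 without any Cbx3 replicate or control replicate 2 (adjusted p up to 0.236 over the 4 genes). Against control, Nr0b1 was 1.58-fold higher in 3XHMT cells (adjusted p = 1.00) and 7.64-fold lower in Cbx3 cells (adjusted p = 0.0601). Eras was 1.26-fold higher in 3XHMT cells (1.00) and 2.23-fold lower in Cbx3 cells (0.0796), and Phc1 1.05-fold higher (1.00) and 1.57-fold lower (0.0601). Under the tier block all 3 fell in Cbx3 cells (adjusted p = 8.88e-05, 0.000949 and 0.00836), and Nr0b1 rose in 3XHMT cells (0.0183).

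Genes that Dppa2 and Dppa4 are known to act on in mouse embryonic stem cells were followed through a list of 2-cell stage genes, which had 32 entries and gave 14 measured genes. Dux and the Zscan4 genes had no probe set with a single symbol and were not analysed here. For 3XHMT against control 0 of 14 passed in limma (0.231% of all genes), and 1, Usp17la, with the 18S tier as a block (1.76%). At an unadjusted p under 0.05 (5.27% of all genes) 2 were higher, Usp17la and Zfp809 (1.41-fold), and 1 lower, Eif4e3 (1.59-fold). The median was 0.09 beside 0.01 over all genes. For 3XHMT against Cbx3 1 of 14 passed, where 1.51% of all genes did. Usp17la is a deubiquitinase gene of a multi-copy family whose copies the probes may not part. It read 5.42 ± 0.11 (SD, n = 2) in 3XHMT cells, 4.29 ± 0.07 in Cbx3 cells and 4.45 ± 0.28 in control cells (SD, n = 3 each). Its mean lay below the lower quartile of the arrays in Cbx3 cells (4.42 to 4.47) and near it in control cells (4.38 to 4.47). It was 2.18-fold higher in 3XHMT than in Cbx3 cells (limma adjusted p = 0.0219; up to 0.154 without any 1 array of these groups) and was the single gene of the list called in that comparison, while 1.95-fold over control did not pass (0.105). The 2-cell markers Tcstv1, Tcstv3 and Zfp352 differed by 0.21, 0.09 and 0.15 in 3XHMT cells (adjusted p = 1.00 each), but Tcstv1 and Tcstv3 had control signals of 3.13 and 2.96, below the lower quartile of the arrays.

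Morc1 is best known from germ cells, and other germline genes were read as a list. For 3XHMT against control 0 of 47 measured genes passed in limma (0.231% of all genes). At an unadjusted p under 0.05 (5.27% of all genes) 5 were higher and 0 lower. The 3 with the lowest p were Ddx25, Gtsf1 (1.54-fold) and Tex19.1 (2.52-fold, limma adjusted p = 0.484). Under the tier block 2 passed (1.76% of all genes), Ddx25 (0.0114) and Tex19.1 (0.0470). The median was 0.01, the same as over all genes. Ddx25, a testis RNA helicase gene, was 2.12-fold higher in 3XHMT than in Cbx3 cells (limma adjusted p = 0.0313). It was the 1 gene of 47 called there, where 1.51% of all genes passed. That call was lost without 3XHMT replicate 2, any Cbx3 replicate, or control replicate 1 or 2 (up to 0.133), and 2.25-fold over control did not pass (0.0653). The germ cell genes Ddx4, Dazl and Mael differed by -0.19, 0.12 and 0.06 between 3XHMT and control (adjusted p = 1.00 each), from control signals of 3.10, 4.11 and 2.87, below the lower quartile of the arrays. For Cbx3 against control 0 of 47 passed (0.445% of all genes), with 2 higher and 2 lower at an unadjusted p under 0.05 (9.56%).

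The relatives of the members by family or name were read in the same way. None of the 6 measured genes passed in limma in any of the 3 comparisons. Dppa5a, which encodes an RNA-binding protein of pluripotent cells, averaged 12.10 ± 0.38 (SD, n = 2) in 3XHMT cells, 10.67 ± 0.51 in Cbx3 cells and 10.52 ± 0.99 in control cells (SD, n = 3 each), and was 3.00-fold over control (adjusted p = 0.636; tier block 0.0455). Dppa3, an oocyte and germ cell gene, differed by 0.34 ± 0.18 (SE) and Morc2a, Morc2b, Morc3 and Morc4 by -0.21 to 0.24 for 3XHMT against control (adjusted p = 1.00 each). Of the 6, 1 had an unadjusted p under 0.05 for 3XHMT against control (5.27% of all genes) and 0 for Cbx3 against control (9.56%). Under the tier block 1 passed in each (1.76% and 6.59% of all genes). These were Dppa5a for 3XHMT and Morc4 for Cbx3, where Morc4 was 1.67-fold higher than control (limma adjusted p = 0.695, tier block 0.00907). Between the knockdowns Dppa5a was 2.69-fold higher in 3XHMT cells (tier block 0.0282) and Morc4 1.94-fold lower (tier block 0.00220).

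Markers of other cell types were set beside these values. For 3XHMT against control 0 of 27 fibroblast, 0 of 10 trophoblast and 0 of 11 primitive endoderm markers passed in limma (0.231% of all genes). At an unadjusted p under 0.05 (5.27% of all genes) 1, 1 and 0 were higher and 3, 0 and 1 lower. The 3 lower fibroblast markers were Twist1 (1.66-fold), Cdh2 (1.40-fold) and Postn (1.22-fold), and 16 of the 27 were lower in direction. With the 18S tier as a block (1.76% of all genes) 1, 1 and 0 were called. These were Dcn, a collagen-binding proteoglycan gene (2.02-fold higher, adjusted p = 0.189, tier block 0.0470), and Plet1 (1.75-fold higher, 0.846, tier block 0.0122). The mean log2 signal of the fibroblast list ran from 6.81 to 6.94 on the 3XHMT arrays, from 6.92 to 6.97 on the Cbx3 arrays and from 6.85 to 6.98 on the control arrays. The part of a changed mix of cells in the members' signal was not tested.

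**Figure D4:**
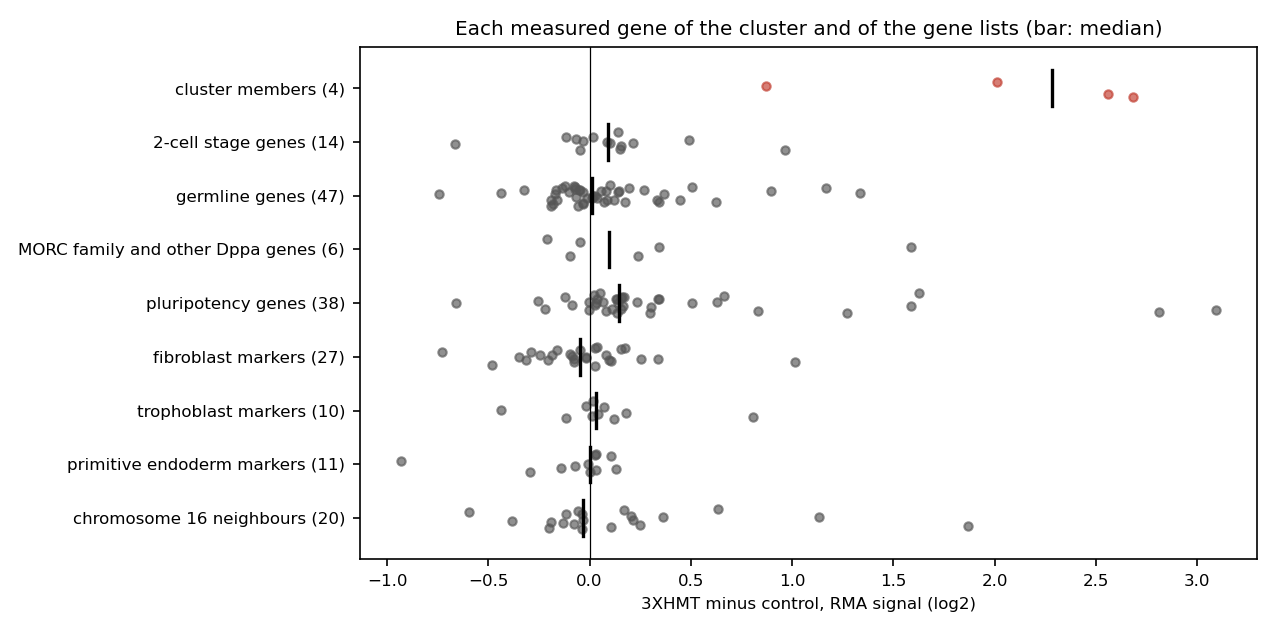
Log2 difference between 3XHMT and control cells for each measured gene of the cluster (4), of the gene lists and of the chromosome 16 neighbours, with the number of genes in brackets and the median as a bar; vertical scatter within a list has no meaning. Dppa2, Dppa4 and Morc1 lie at 2.01 to 2.68, and among the other genes plotted only Nanog and Zfp42, at 2.81 and 3.09, lie above 2.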

How the data were processed

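The deposited table holds the authors' log2 expression values for 45101 probe sets on 8 Affymetrix arrays, made with RMA per the submitters' processing notes; the sources used here give no version or settings. Gene names came from the platform annotation and RefSeq (GRCm38.p6, names and gene order only), with 34958 probe sets carrying 1 symbol, 932 several and 9211 none. Of those with 1 symbol, 34754 matched RefSeq. Each of 18193 genes was represented by its probe set with the highest mean. The 64 control probe sets entered no test.

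A model of the 3 groups was fitted over the 8 arrays (limma 3.58.1, R 4.3.3; lmFit, eBayes, two-sided, 5 residual degrees of freedom), with Benjamini-Hochberg adjustment over all genes and a threshold of 0.05. The number of arrays limits the precision. Named genes were the members, the 10 nearest measured genes on each side, the targets, list genes that passed or were among the 3 with the lowest p of a list, and the 5 nearest profiles. Gm5485, Pou5f1, the genes of the runs, Tcstv1, Tcstv3, Zfp352, Ddx4, Dazl, Mael, Morc2b and Morc3 were named outside this rule after their values were seen. The members and lists were chosen with earlier results of these data known.

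Replicate numbers paired Cbx3 with control arrays (deviations from group means correlated across genes by 0.57, 0.59 and 0.74 for the 3 pairs) but not 3XHMT with control arrays (0.11 and -0.56). With n = 2 the deviations of the 3XHMT arrays are mirror images of each other, so these last values are not separate checks of 2 pairs. The 18S tiers, cut at the 2 widest gaps of 1 control probe set, keep the Cbx3 and control pairs. They also place 3XHMT 1 with control 2 (0.56) and 3XHMT 2 with control 3 (0.53), values under the same limit.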

Additional observations from a re-analysis of the deposited data

How the results depend on the processing

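Over 153 alternative values, the 12 member differences kept their sign. Where the arrays of 2 groups do not overlap, leaving out 1 array cannot change it, and the members were chosen on these values. Of the values, 4, all of Dppa4, moved by more than the gene's SD pooled over the 3 groups. That SD was 0.34 for Dppa4, whose 3XHMT arrays alone had 0.75, and 0.68 for Morc1. Leaving out 1 array gave Dppa4 2.03 to 3.09 for 3XHMT against control and 2.34 to 3.41 for 3XHMT against Cbx3, lowest without 3XHMT replicate 1, and Morc1 1.44 to 2.38 for 3XHMT against control and -1.51 to -0.57 for Cbx3 against control. With the replicate number as a block Dppa2 differed by 2.89, and with the 18S tier as a block by 2.35, for 3XHMT against control. 6430553K19Rik and Cd96 have no value without dim probe sets.

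The number of neighbours passing for 3XHMT against control, 0, was 1 with the replicate block or a mean-variance trend and 2 with the 18S tier as a block. For Cbx3 against control, 0, it was 1 and 4 with these blocks. For 3XHMT against Cbx3, 2, it was 4 and 6 with the blocks, 1 without dim probe sets and 0 to 3 without 1 array. Listed genes passing for 3XHMT against control numbered 2, against 10 with the tier block, 0 without dim probe sets, 1 with cyclic loess, with the mean of probe sets or with only the 2 groups compared, and 0 to 1 without 1 array. For Cbx3 against control they numbered 1, against 7 with the replicate block, 14 with the tier block, 3 with the mean of probe sets and 0 to 1 without 1 array. For 3XHMT against Cbx3 they numbered 6, against 11 and 25 with the blocks and 0 to 8 without 1 array. Over all genes the counts of 42, 81 and 275 became 320, 1199 and 1660 with the tier block, but 3 to 22, 2 to 34 and 22 to 273 without 1 array, so that the shares of all genes called move as well. The causes were not tested. Over 1831 alternative values of single neighbours and listed genes 59 calls were lost, 64 gained and 0 reversed. Background correction could not be varied, since the deposited values are already RMA signals.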
